A study of Mus musculus with 4 samples.

Results

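The regions described here are the peaks that an antibody against the V5 tag gave in cells without that tag. They are every peak of the 2 V5 control lists, on every chromosome and unplaced scaffold: 308 peaks in control replicate 1 and 124 in control replicate 2, 432 of the 70921 peaks in all 4 lists. Each was marked by whether a peak of the other control list, or of either Foxr2 p53LOF list, overlapped it by 1 bp or more, and described by its position, the sequence at its summit and its fold.

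The study mapped Foxr2 on chromatin by CUT&RUN, in which a nuclease tethered to an antibody releases the DNA near its target. Foxr2 with a C-terminal V5 label, driven by the CAG promoter from a piggyBac vector, was delivered together with loss of p53 (genotype FOXR2 P53LoF) by in utero electroporation, and the tumour cells were grown as neurospheres. The V5 control came from a separate in utero electroporation model of genotype H3.3G34R, grown as cell lines without the tag. All 4 libraries came from C57BL/6J cells, 500000 per library, cross-linked in 0.1% formaldehyde for 1 minute and bound by the same V5-Tag antibody. A single line stands for Foxr2 p53LOF, and the number of lines behind the V5 control is not given in the sources used here. The tag, Foxr2 overexpression and H3.3G34R differ together between the groups and cannot be told apart, the p53 state of the control is not given in the sources used here, and nothing states that the replicates were separate cultures, so their spread may be technical.

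A background peak in such an assay is a stretch where reads pile up without the tagged protein. Mouse centromeres are flanked by long tandem arrays of the AT-rich major satellite, of which a genome assembly holds only small pieces, so that reads from many copies meet on few bases. The mitochondrial genome is present in many copies per cell and has close copies inside the nuclear chromosomes, and the ribosomal RNA genes form arrays of which the assembly holds fragments.

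The sequences that recurred at the highest control summits are shown first, read from the plus strand of GRCm38. The first is 1 unit of the tandem array at the start of chromosome 9 (chr9:3024459-3024692, exon of Gm10718), with capitals for the 195 of 234 bases that recur 234 bp downstream.
Array unit, chromosome 9: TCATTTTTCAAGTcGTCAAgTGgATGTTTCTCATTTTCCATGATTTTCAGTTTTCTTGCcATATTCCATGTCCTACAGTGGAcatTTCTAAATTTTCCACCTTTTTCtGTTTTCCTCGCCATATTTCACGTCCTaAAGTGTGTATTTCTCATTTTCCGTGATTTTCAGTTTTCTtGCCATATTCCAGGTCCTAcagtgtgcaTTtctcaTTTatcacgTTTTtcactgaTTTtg
The next 4 lie outside that array, at the summits in Gm10800 (chr2:98666927-98667126, exon), an intron of Gm33838 (chr9:35305244-35305443), Gm21738 (chr14:19417108-19417307, exon) and an intron of Mdga2 (chr12:67059264-67059463). Capitals mark bases identical to the aligned base of the chromosome 9 array, 178, 194, 191 and 164 of 200 bases in this order.
Gm10800: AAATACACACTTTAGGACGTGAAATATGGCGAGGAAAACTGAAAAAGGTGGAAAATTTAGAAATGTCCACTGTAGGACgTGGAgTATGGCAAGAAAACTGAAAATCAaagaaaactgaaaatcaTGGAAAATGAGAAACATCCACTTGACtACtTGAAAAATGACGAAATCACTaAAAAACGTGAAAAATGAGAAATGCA
Gm33838: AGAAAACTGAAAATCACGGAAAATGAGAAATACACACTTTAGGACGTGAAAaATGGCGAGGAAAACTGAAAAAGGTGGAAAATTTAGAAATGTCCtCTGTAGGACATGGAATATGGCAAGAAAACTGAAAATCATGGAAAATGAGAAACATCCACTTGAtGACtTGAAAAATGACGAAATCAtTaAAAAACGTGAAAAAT
Gm21738: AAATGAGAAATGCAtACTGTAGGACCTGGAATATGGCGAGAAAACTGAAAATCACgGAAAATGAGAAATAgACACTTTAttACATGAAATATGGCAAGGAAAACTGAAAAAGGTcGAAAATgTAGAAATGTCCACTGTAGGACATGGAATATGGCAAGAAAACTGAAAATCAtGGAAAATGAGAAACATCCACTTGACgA
Mdga2: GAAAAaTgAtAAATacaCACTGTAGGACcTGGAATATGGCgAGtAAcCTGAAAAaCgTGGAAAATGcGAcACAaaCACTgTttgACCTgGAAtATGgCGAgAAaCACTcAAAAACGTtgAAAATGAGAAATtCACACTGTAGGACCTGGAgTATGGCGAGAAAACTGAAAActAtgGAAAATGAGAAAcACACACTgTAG
Further kinds of near copy are given with capitals for the bases that differ or have no counterpart. On chromosome 6 (chr6:3201289-3201488, intergenic), 3 of 200 bases differed from the 18S ribosomal RNA locus of chromosome 17. On chromosome 1 (chr1:24612653-24612852, intergenic), 1 of 200 bases was an extra T without a counterpart in the mitochondrial genome.
Chromosome 6, 18S-like: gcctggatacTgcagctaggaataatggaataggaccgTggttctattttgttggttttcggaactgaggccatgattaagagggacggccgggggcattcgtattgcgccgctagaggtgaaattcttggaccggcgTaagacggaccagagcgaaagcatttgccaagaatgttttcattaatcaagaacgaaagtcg
Chromosome 1, mitochondrial-like: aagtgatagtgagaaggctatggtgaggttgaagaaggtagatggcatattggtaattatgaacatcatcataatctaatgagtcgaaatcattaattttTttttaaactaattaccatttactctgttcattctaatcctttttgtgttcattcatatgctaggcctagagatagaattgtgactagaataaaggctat
The last 2 are the left ends of single-copy control peaks, which lay within 14 bp of each other in all 4 lists, 61058 bp from Axin2 (chr11:109011616-109011715, intergenic) and in an intron of Cdk8 (chr5:146260962-146261061), with capitals inside the peak of control replicate 1.
Left end near Axin2: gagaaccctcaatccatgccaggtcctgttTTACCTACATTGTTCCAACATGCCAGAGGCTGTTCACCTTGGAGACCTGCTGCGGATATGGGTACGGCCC
Left end in Cdk8: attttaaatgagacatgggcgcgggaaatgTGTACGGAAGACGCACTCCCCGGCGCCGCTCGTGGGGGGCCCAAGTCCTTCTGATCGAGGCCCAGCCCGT

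The control libraries gave far fewer peaks than the tagged line. Control replicates 1 and 2 held 308 and 124 peaks over 0.406 and 0.223 Mb, and the Foxr2 p53LOF replicates held 31909 and 38580 peaks over 40.7 and 52.8 Mb. The groups did not overlap on either measure. The mean difference was -35028.5 peaks and -46.4 Mb (exact two-sided permutation test, p = 0.33 for both, the smallest p that 2 libraries against 2 allow). Fold, the fragments at a summit plus 1 over the background plus 1, is relative to the library itself, with a recovered background of 1.69 and 0.642 fragments in the controls and 1.26 and 2.04 in the Foxr2 p53LOF libraries. The peak lists give no read totals, and the methods state only an approximate sequencing depth common to the libraries, so the depth of each library is not known here. The median control summit held 17 and 23.5 fragments in replicates 1 and 2 and the lowest held 10 and 7, which leaves the weaker peaks imprecise.

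The control peaks lay in repeated sequence, beside assembly gaps and on unplaced scaffolds far more often than the peaks of the tagged line did. As a background, 26479 windows placed every 100 kb on the assembled chromosomes were scored at their centres as the peaks were at their summits. They leave out the unplaced scaffolds and the mitochondrial genome. At least 50% of the 200 bp summit window was repeat-masked at 49.0% and 58.1% of control peaks in replicates 1 and 2, against 6.93% and 7.49% of Foxr2 p53LOF peaks and 30.8% of the windows. The control shares therefore sat above the genome and the Foxr2 p53LOF shares below it. Summits whose median 31-base word occurs in 2 or more copies in the reference made up 43.8% and 47.6% of control peaks, against 2.07% and 2.05% of Foxr2 p53LOF peaks and 18.2% of windows. With 10 copies or more the shares were 12.99% and 16.94% against 0.84% and 0.754% (mean difference 14.2 percentage points, exact two-sided permutation test, p = 0.33), but 12.8% of windows also reached 10 copies, so the control shares were close to that of the genome. With 100 copies or more the control shares were 2.6% and 1.61%, against 0.323% and 0.321% of Foxr2 p53LOF peaks and below the 7.9% of windows. Peaks within 100 kb of an assembly gap were 38.3% and 41.9% in the controls, 1.38% and 1.35% in the Foxr2 p53LOF lists and 1.5% of windows. Unplaced scaffolds held 55 (17.9%) and 38 (30.6%) control peaks, on 13 scaffolds, and 46 (0.144%) and 56 (0.145%) Foxr2 p53LOF peaks.

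Gene context went the other way. A protein-coding transcript started within 1 kb of 9.74% and 16.9% of control peaks and of 36.6% and 31.2% of Foxr2 p53LOF peaks (mean difference -20.5 percentage points, exact two-sided permutation test, p = 0.33), against 3.15% of windows. The windows spanned 600 bp here, while each peak was scored over its whole length. Median lengths were 645.5 and 714.5 bp in the controls and 934 and 922.5 bp in the Foxr2 p53LOF lists. Of the control peaks by a start, 9 of 30 in replicate 1 and 12 of 21 in replicate 2 were satellite-like and 2 in each were mitochondrial, while 16 of 139 and 4 of 43 single-copy peaks lay by a start (classes are defined with the folds by sequence). In control replicate 1, 154 summits were intergenic, 126 intronic and 28 exonic, and in replicate 2 the numbers were 78, 30 and 16, where 54.1%, 41.1% and 4.8% of windows lay in those contexts. Of all protein-coding genes, 138 of 22028 (0.626%) had a control peak in the body or within 10 kb. None of the 6 genes of electroporation models listed (Foxr2, Trp53, Pdgfra, Atrx, H3f3a and H3f3b) was among them, nor were the 10 genes of interneurons and the ganglionic eminence (Sst, Gad1, Gad2, Lhx6, Nkx2-1, Gsx2, Dlx5, Dlx6, Dlx1 and Dlx2) or the 9 glial genes (Sox9, Sox10, Nfia, Nfib, Olig1, Olig2, Zfp536, Pdgfra and Gfap). At that share, lists of this size would hold fewer than 1 such gene each, so the zeros set them apart from no other genes. Peaks hold no measure of expression, and the identity of the lines was not checked here.

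Sorted by the sequence at the summit, the control peaks fell into 6 classes with very different folds. A summit was called satellite-like where at least 200 bases of a 400 bp window aligned to the chromosome 9 array, and a copy of the mitochondrial genome or of the chromosome 17 locus where they aligned to it at 90% identity or more. That locus was itself defined by the ends of its control peak, so its own place in the class is fixed by that choice. The array was cut the same way, at the outer ends of the control replicate 1 peaks there, so that any peak inside it is satellite-like by that choice. Single copy means only that the 31-base words at the summit had a median copy number under 2, and the class still holds masked and tandem repeats. In 42 of its 139 peaks in replicate 1 and 13 of 43 in replicate 2 at least 50% of the summit window was repeat-masked, or at least 75% of bases recurred at a fixed spacing. Replicates 1 and 2 held 53 and 44 satellite-like peaks, 2 and 2 on the mitochondrial genome, 2 and 0 nuclear mitochondrial copies, 2 and 1 at the chromosome 17 locus that holds the 18S gene or a copy of it, 110 and 34 in other repeated sequence and 139 and 43 in single-copy sequence. The median fold was 26.7 and 19.5 for satellite-like peaks, 6.31 and 13.1 for other repeated sequence and 5.57 and 9.13 for single-copy sequence. Without the peaks in the array the satellite-like medians were 22.83 over 46 peaks and 17.96 over 34. Satellite-like peaks were thus the highest of the 3 large classes in both lists, with ranges that overlapped widely.

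**Figure D1:**
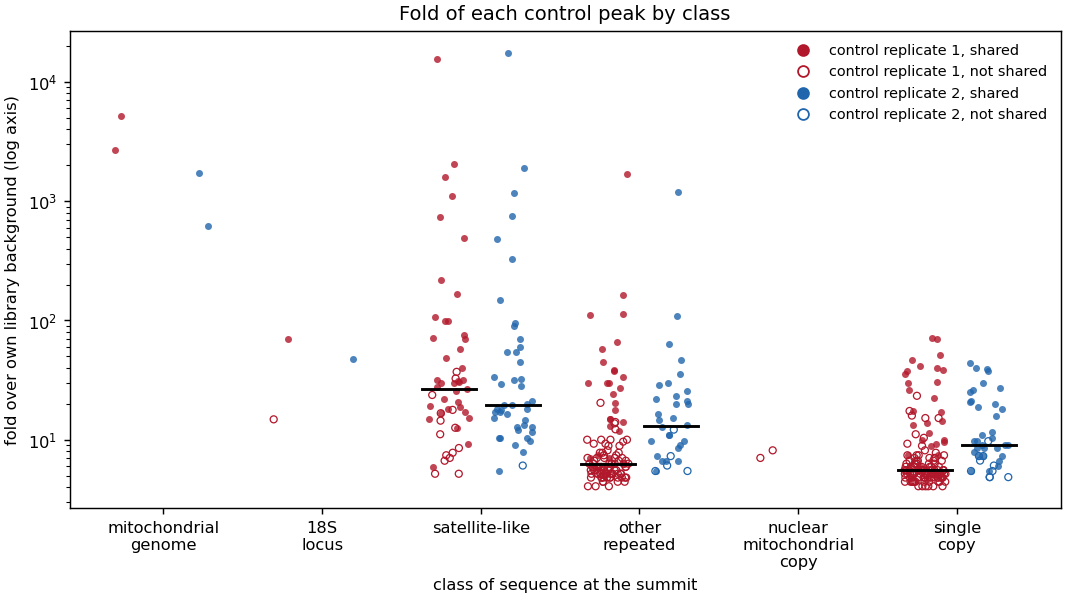
Fold of each control peak over the background of its own library (log axis) by class of sequence at the summit, for control replicate 1 (red) and replicate 2 (blue). Filled points overlap a peak of the other control list, open points do not, and bars are medians (drawn for classes over 4 peaks). Unshared peaks crowd at the bottom of the single-copy and other repeated classes of replicate 1, and every peak above a fold of 100 is shared.

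The satellite-like class was nearly constant in number. It held 53 and 44 peaks in the controls and 49 (0.154%) and 51 (0.132%) in the Foxr2 p53LOF lists, while the single-copy class went from 139 and 43 to 31224 and 37763. Of the genome windows, 2 (0.00755%) were satellite-like. In control replicate 1, 7 satellite-like peaks lay in the chromosome 9 array itself, 37 on unplaced scaffolds and 9 elsewhere on chromosomes, and in replicate 2 these numbers were 10, 25 and 9. Outside the array, the identity to it had a median of 79.9% in replicate 1 (72.7% to 96.0%) and of 80.9% in replicate 2 (73.0% to 96.0%). A match at that level is seldom exact over 31 bases, and 32 of the 53 and 21 of the 44 summits had a copy number under 2 by that measure. Exact words alone would have placed these 32 and 21 peaks in the single-copy class.

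**Figure D2:**
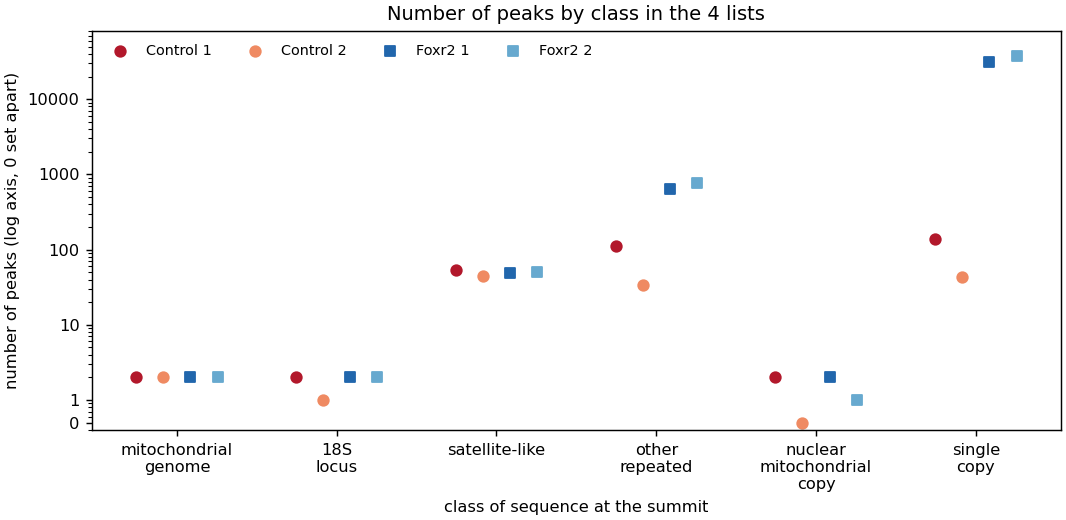
Number of peaks (log axis, with 0 set apart) in each class of summit sequence for the 2 control lists (circles) and the 2 Foxr2 p53LOF lists (squares). The mitochondrial, 18S and satellite-like classes hold like numbers in all 4 lists, and the single-copy class holds 139 and 43 control peaks against 31224 and 37763 Foxr2 p53LOF peaks.

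The highest peak of both control lists was a 1100 bp peak in Gm10800 (chr2:98666237-98667336), the first of the printed near copies of the array. Its fold was 15432.6 in control replicate 1, 17445.5 in replicate 2, 12843.5 in Foxr2 p53LOF replicate 1 and 10301.5 in replicate 2. The values rest on 41574 and 28653 fragments in the controls, and the peak was the highest of all 4 lists. Gm10800 aligned to the array at 92.2% identity over 400 bp. A fold at such a place sums the reads of every copy assigned to it, so that the number of copies in the cells and the signal per copy cannot be told apart.

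The same kind of sequence filled most of the other top ranks. The array on chromosome 9 gave a peak of 11378 bp (chr9:3021579-3032956, Gm10718) with folds of 2058.6 and 1878.2 in the controls and 1219.0 and 1156.4 in the Foxr2 p53LOF lists. The Gm33838 intron (chr9:35305215-35305592) lies far from it on the same chromosome, spans 378 bp and matched the array at 96.0% over 348 bp. Its folds were 1605.0 and 1167.1 in the controls and 877.1 and 936.6 in the Foxr2 p53LOF lists. Gm21738 (chr14:19415709-19419583) matched at 91.3%, repeated itself every 351 bp, and had folds of 491.8 and 325.1 against 206.3 and 200.1. At each of these 3 places both control folds exceeded both Foxr2 p53LOF folds, each relative to its own background. The exception among the top repeats by this alignment was Gm10801 (chr2:98662230-98662992), at 1697.1 and 1187.8, where 37 bases of the summit window aligned to the array in replicate 1 and 64 in replicate 2, and the peak counted as other repeated sequence.

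A weaker example shows how far the likeness extends. The peak in an intron of Mdga2 (chr12:67059168-67059930), a gene for a membrane-anchored neuronal adhesion protein, is single copy by exact 31-base words but aligned to the array at 80.8% over 394 bases, as printed above. It reached 71.3 and 45.1 in the controls and 39.8 and 33.5 in the Foxr2 p53LOF lists, ranks above 99% of each Foxr2 p53LOF list. Tandem structure itself was rarer than likeness. In 20 peaks of replicate 1 and 13 of replicate 2 at least 75% of bases recurred at a fixed spacing, against 0.0831% of windows. The spacing was 234 bp in 11 and 9 of them. Among the 11 was the single-copy, unmasked peak at chr5:137152254-137152853, which did not align to the array despite this spacing. Other spacings were 19, 23, 24, 31, 233 and 351 bp. The 31 bp repeat at chr9:124256307-124258003, intergenic, had control folds of 66.1 and 35.3.

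Mitochondrial DNA gave 2 peaks in every list, which together covered 92.0% of its genome in control replicate 1. The peak of MT:8593-16299 had folds of 5136.9 and 1705.9 in the controls and 6236.1 and 4409.9 in the Foxr2 p53LOF lists, and that of MT:1-7282 had 2683.7 and 622.8 against 4000.9 and 3356.0. The control replicates differed here by 3.01 and 4.31 times, the widest ratios of any shared region. Of the nuclear copies, the intergenic peak at chr1:24612469-24613201 matched mitochondrial sequence at 99.8% over 400 bp but had a fold of 8.17 on 21 fragments in replicate 1, and a peak in an intron of Myo3a, a motor protein gene (chr2:22589352-22590094), matched over 400 bp with a fold of 7.05 on 18 fragments. Neither was called in control replicate 2.

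The 18S locus of chromosome 17 (chr17:39842997-39848829), which holds Gm26917 and the ribosomal RNA gene CT010467.1, gave folds of 69.8 and 47.5 in the controls and 126.4 and 103.8 in the Foxr2 p53LOF lists. The folds come from different places in the peak. The control summits (39843684 and 39844225) lay in Gm26917 outside CT010467.1 (39846353 to 39848827), and the Foxr2 p53LOF summits (39847824 and 39847711) lay inside it, so the folds are not compared. All 4 libraries called it with the same first and last base over 5833 bp. The 18S-like stretch of chromosome 6 (chr6:3201054-3201566), 96.9% identical over 382 bp, was called in control replicate 1 at 14.8 and in the Foxr2 p53LOF lists at 23.4 and 26.9. At this stretch, which aligned to the ribosomal RNA gene itself, both Foxr2 p53LOF folds were above the 1 control fold. Of 354 annotated ribosomal RNA genes 1 (0.282%) had a control peak within 10 kb, of 1385 snRNA genes 2 (0.144%), of 562 misc_RNA genes none and of 2207 miRNA genes 12 (0.544%). Of 1507 snoRNA genes 17 (1.13%) had one, 16 of them in the cluster hosted by Snhg14 on chromosome 7. That group rests on 2 weak peaks in 1 list each, at chr7:59768526-59768882 with a fold of 7.79 in replicate 1 and at chr7:59797415-59797859 with 6.70 in replicate 2.

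The weak peaks of control replicate 1 were seldom found in replicate 2. Replicate 1 shared 96 of its 308 peaks (31.2%) with replicate 2, and replicate 2 shared 108 of its 124 (87.1%) with replicate 1. Of the genome windows at 600 bp, 0.0% overlapped a replicate 2 peak and 0.0113% a replicate 1 peak. The unshared peaks of replicate 1 had a median fold of 5.57 and its shared peaks 29.9. By fold, 4 of 137 replicate 1 peaks up to 6 were shared (2.92%), 10 of 65 between 6 and 10 (15.4%), 34 of 56 between 10 and 30 (60.7%) and 48 of 50 above 30 (96.0%). In replicate 2, 4 of 11 peaks up to 6 were shared (36.4%), 25 of 33 between 6 and 10 (75.8%), 50 of 51 between 10 and 30 and 29 of 29 above 30. By class, 38 of 53 satellite-like, 26 of 110 other repeated and 29 of 139 single-copy peaks of replicate 1 were shared, and 43 of 44, 29 of 34 and 33 of 43 of replicate 2. Replicate 1 held more fragments in its background than replicate 2, and whether that sets its longer list was not tested.

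At the 96 shared regions the 2 control libraries ranked the folds almost alike. Spearman's rho over these regions was 0.964, given as a description, since the regions share 2 libraries and many share sequence. The ratio of replicate 1 to replicate 2 fold had a median of 1.51 and ran from 0.65 to 4.31, with 87 of 96 regions higher in replicate 1. The median ratio was 1.54 for satellite-like, 1.52 for other repeated and 1.35 for single-copy regions. The summits lay a median of 15.5 bp apart.

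**Figure D3:**
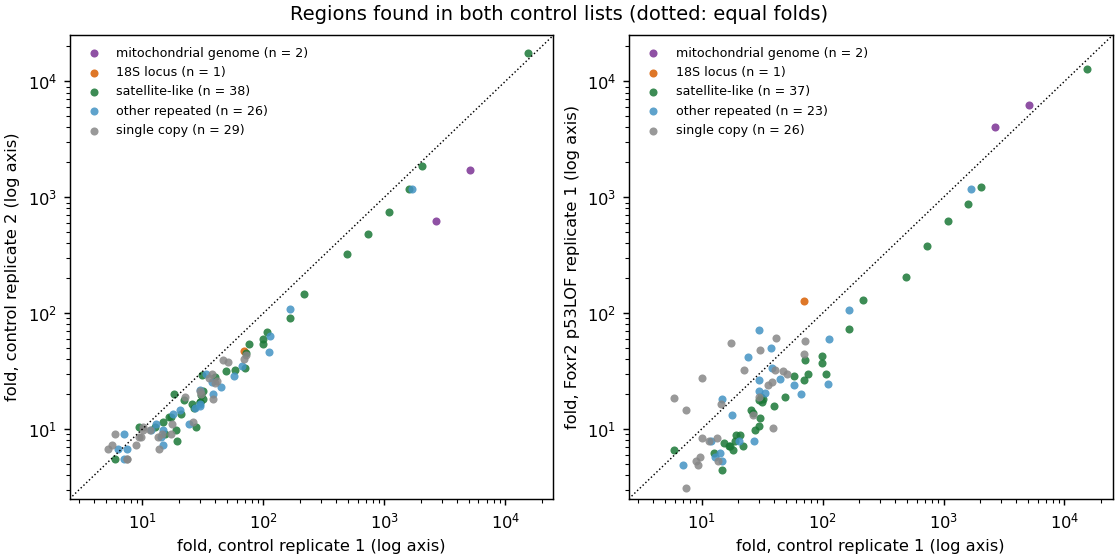
Fold in control replicate 1 against control replicate 2 (left) and against Foxr2 p53LOF replicate 1 (right) at the regions found in both control lists, all axes logarithmic, with 1 point per region coloured by class and a dotted line at equal folds. On the left most points run just under the line, with the 2 mitochondrial points farthest from it. On the right most satellite-like points lie under the line and several single-copy points and the point of the chromosome 17 locus above it, whose summits differ between the groups.

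Control peaks lay far more often in Foxr2 p53LOF peaks than genome windows did. In control replicate 1, 184 of 308 peaks (59.7%) and in replicate 2, 109 of 124 (87.9%) overlapped a peak of either Foxr2 p53LOF list, against 3.28% of windows. The share followed the fold. It was 35.8% of the replicate 1 peaks up to a fold of 6 and 50 of 50 above 30, and 29 of 29 in replicate 2 above 30. By class, 76 of 139 (54.7%) and 34 of 43 (79.1%) single-copy peaks overlapped, beside 45 of 53 and 43 of 44 satellite-like peaks. Of the single-copy peaks that were neither masked nor tandem by the measures above, 56 of 97 and 24 of 30 did so. In all 4 lists at once were 84 peaks of replicate 1 and 94 of replicate 2. Only 119 (38.6%) and 8 (6.45%) peaks appeared in no other list, with median folds of 5.57 and 5.48. The strongest of these was a satellite-like peak on scaffold JH584304.1 (106634 to 107024), at 23.8 in replicate 1.

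Seen from the tagged line, the overlap was small in number, filled the very top ranks and reached down the lists. This holds for the lists as deposited. The paper states that Foxr2 p53LOF peaks overlapping a control peak were removed from its final set of sites. Of the Foxr2 p53LOF peaks, 181 (0.567%) and 170 (0.441%) overlapped a control peak. Among the 10 highest folds, 10 of 10 did so in both replicates, and among the 100 highest, 30 and 25 did. At each control peak the highest fold of the overlapping Foxr2 p53LOF peaks was ranked within its own list. A broad Foxr2 p53LOF peak thus lends its percentile to every control peak under it. At the 165 control replicate 1 peaks that overlapped Foxr2 p53LOF replicate 1, the percentiles ran from 2.32 upwards with a median of 76.0. Of the 165, 46 were below the middle of that list. Against Foxr2 p53LOF replicate 2, 24 of 156 were below the middle (median percentile 84.9). For control replicate 2 the numbers were 9 of 105 (median 96.9) and 8 of 102 (median 95.6), so that its peaks met mostly high Foxr2 p53LOF peaks. Of the satellite-like Foxr2 p53LOF peaks, 48 of 49 and 50 of 51 (98.0% each) overlapped one. Of these, 12 and 11 lay in the chromosome 9 array, whose limits the control peaks set, and outside it 37 of 37 and 39 of 40 overlapped.

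The single-copy class held 29 of the shared regions, 7 of them in masked sequence for at least 50% of the summit window, 26 and 24 of which overlapped a peak of Foxr2 p53LOF replicates 1 and 2 and 14 of which lay within 100 kb of an assembly gap. Those near a gap included intergenic peaks near Polr3k, a subunit gene of RNA polymerase III (chr2:181916916-181919201, 46989 bp away), at 69.8 and 40.2 in the controls and 44.6 and 51.3 in the Foxr2 p53LOF lists, and near Vmn1r238, a pheromone receptor gene (chr18:3003986-3006720), at 71.3 and 43.8 against 57.0 and 74.6. Another lay in Sfi1, a centrosomal protein gene, and reached into Drg1, a GTP-binding protein gene (chr11:3183891-3200063), at 37.9 and 29.8 against 25.6 and 31.2. Those in Tmem267, where 94.5% of the summit window was masked (35.6 and 27.4 against 23.86 and 21.03) and Dock2, a guanine nucleotide exchange factor gene of leukocytes (29.695 and 21.309 against 18.999 and 21.355), were also within 100 kb of a gap. At Tmem267 both control folds exceeded both Foxr2 p53LOF folds, and at the other 4 the folds of the groups overlapped.

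Other single-copy regions lay more than 100 kb from any gap. Aida, which encodes an axin interactor, held an intronic peak (chr1:183299135-183299594) with folds of 51.2 and 37.7 in the controls and 30.05 and 36.14 in the Foxr2 p53LOF lists, 107267 bp from a gap. The intergenic peak 61058 bp from Axin2, a feedback inhibitor of Wnt signalling (chr11:109011646-109012100), had 41.6 and 26.2 in the controls and 60.5 and 62.7 in the Foxr2 p53LOF lists. In the intron of Cdk8, the kinase of the Mediator complex (chr5:146260992-146261355), the folds were 22.3 and 18.9 against 32.3 and 31.5. An intron of Kctd16, a subunit gene of GABA-B receptors (chr18:40308021-40308403), had 40.1 and 25.0 against 32.3 and 42.1, and one of Tyw1, a tRNA modification gene (chr5:130258115-130258758), 10.02 and 10.35 against 27.8 and 17.7. The region near Gdi2, a regulator of Rab GTPases (chr13:3372720-3374326), also over 100 kb from a gap, had 46.8 and 39.6 against 31.8 and 27.3. In Gm36264, likewise distant from a gap, the folds were 30.4 and 20.1 against 48.2 and 37.1. Nearer to a gap, the region near Gm21060 (chr19:61266531-61267154) had 17.4 and 10.96 against 54.8 and 51.6. The region in 2700054A10Rik, of which 79.0% of the summit window was masked, had 38.6 and 18.3 against 10.2 and 20.4, and a second site near Polr3k, masked at 85.5%, 26.4 and 11.6 against 13.3 and 17.7. Over the 15 single-copy regions named here, both Foxr2 p53LOF folds exceeded both control folds at 5 (Axin2, Gm36264, Cdk8, Gm21060 and Tyw1). Both control folds exceeded both Foxr2 p53LOF folds at 3 (Gdi2, Aida and Tmem267), and at 7 the groups overlapped. Each Foxr2 p53LOF fold is the highest of the peaks overlapping the region, and summits were not matched. Over all overlapping single-copy peaks of control replicate 1, the nearest summits of Foxr2 p53LOF replicates 1 and 2 lay a median of 291 and 185 bp away.

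A minority of control peaks kept nearly the same borders from library to library. Both ends agreed within 10 bp for 16 of the 96 replicate 1 peaks that overlapped replicate 2 (16.7%), against 77 of the 24072 Foxr2 p53LOF replicate 1 peaks that overlapped replicate 2 (0.32%). Against the Foxr2 p53LOF lists the numbers were 21 of 165 (12.7%) and 21 of 156 (13.5%) for control replicate 1, and 17 of 105 (16.2%) and 16 of 102 (15.7%) for control replicate 2. The median of the larger end difference was 234.5 bp between the controls and 466.0 bp between the Foxr2 p53LOF replicates. The peaks compared differ in length and fold as well as in list, and their part in the difference was not tested.

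Of the replicate 1 peaks, 9 had both ends within 10 bp in each of the other 3 lists. They were 378 to 5833 bp long and came from 4 classes: the satellite-like peaks of Gm10800 and Gm33838, the 18S locus, 3 peaks of other repeated sequence and 3 of single-copy sequence. The Gm10800 peak began at the same base in all 4 lists and ended 1 bp earlier in the Foxr2 p53LOF lists. The peak in other repeated sequence near Ly6c2 (chr15:75085484-75087045) had folds of 164.8 and 109.0 in the controls and 106.9 and 115.3 in the Foxr2 p53LOF lists, and that in Cldn34d, a claudin-like gene (chrX:76598550-76599136), 114.0 and 63.3 against 59.6 and 96.9. The single-copy peak in an intron of Gm36264 (chr13:9011708-9012168) began and ended at the same bases in both controls, with 30.4 and 20.1, and ended at the same base in the Foxr2 p53LOF lists, at 48.2 and 37.1. Outside these 9, the left end near Axin2, printed above, was the same base in all 4 lists, while the right end moved over 31 bp. In Cdk8 the left ends fell within 14 bp of each other.

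**Figure D4:**
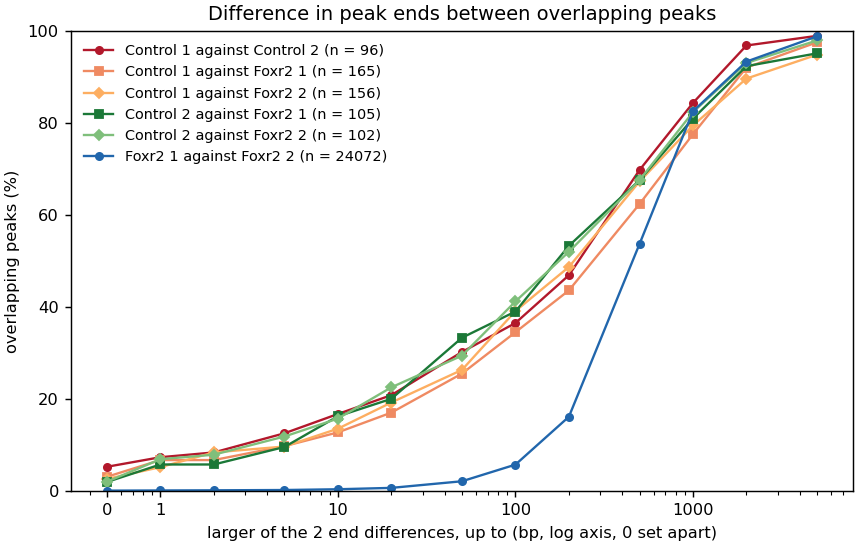
Share of overlapping peaks (%) whose larger end difference is no more than the distance on the x axis (bp, log axis, with 0 set apart), for each pair of lists. The 5 curves that involve a control list rise from the shortest distances. The curve of the 2 Foxr2 p53LOF lists reaches only 0.32% at 10 bp and 5.68% at 100 bp, and 53.7% at 500 bp.

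The control peaks were grouped in runs. Joined over gaps of up to 10 kb, the 432 peaks made 170 loci, 92 of them with 1 peak, and 19 loci of 5 or more peaks held 207 peaks. Both lists contributed to 60 loci, replicate 1 alone to 97 and replicate 2 alone to 13. Scaffold JH584304.1 held 28 peaks, 22 of them satellite-like, the chromosome 9 array 17, and a run at chr8:71811755-71859549 held 13 replicate 1 peaks and none of replicate 2, with folds from 4.08 to 6.68. At Duxf3 and AW822073 (chr10:58221389-58233984) 6 and 5 peaks had folds of 7.05 to 13.7 and 5.48 to 9.74.

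The run with the most peaks was neither repeated nor near a gap. Over 96.8 kb of chromosome 1 (chr1:88211455-88308286), 34 peaks of replicate 1 and 4 of replicate 2 lay in single-copy sequence across 12 protein-coding genes: the Ugt1a cluster of glucuronosyltransferases, Mroh2a, Hjurp, which encodes the chaperone of the centromeric histone CENP-A, and Trpm8, a cold-sensing channel gene. Folds were uniformly low, 4.45 to 8.91 on 11 to 23 fragments in replicate 1 and 6.09 to 7.31 on 9 to 11 fragments in replicate 2, and the peaks of replicate 1 covered 38.7 kb of the run. Neither control had a peak in the 100 kb on either side. The Foxr2 p53LOF lists held 32 and 17 peaks in the run, with medians of 4.42 and 4.93, and 3 and 2 in the same 200 kb of flanks, where the mean over the assembled chromosomes was 1.17 and 1.41 peaks per 100 kb. Their highest peaks had summits in Hjurp (chr1:88273550-88282325 and chr1:88271743-88282559), at 76.9 and 104.1. The 2 control peaks under each of these reached no more than 8.17. In all, 26 of the 38 control peaks of the run overlapped a Foxr2 p53LOF peak, close to the 67.8% of all 432 control peaks. The Foxr2 p53LOF peaks of the run came to 41.8 kb in each list, 43.2% of its length. Of the 43 replicate 1 peaks of chromosome 1, 34 lay in the run.

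**Figure D5:**
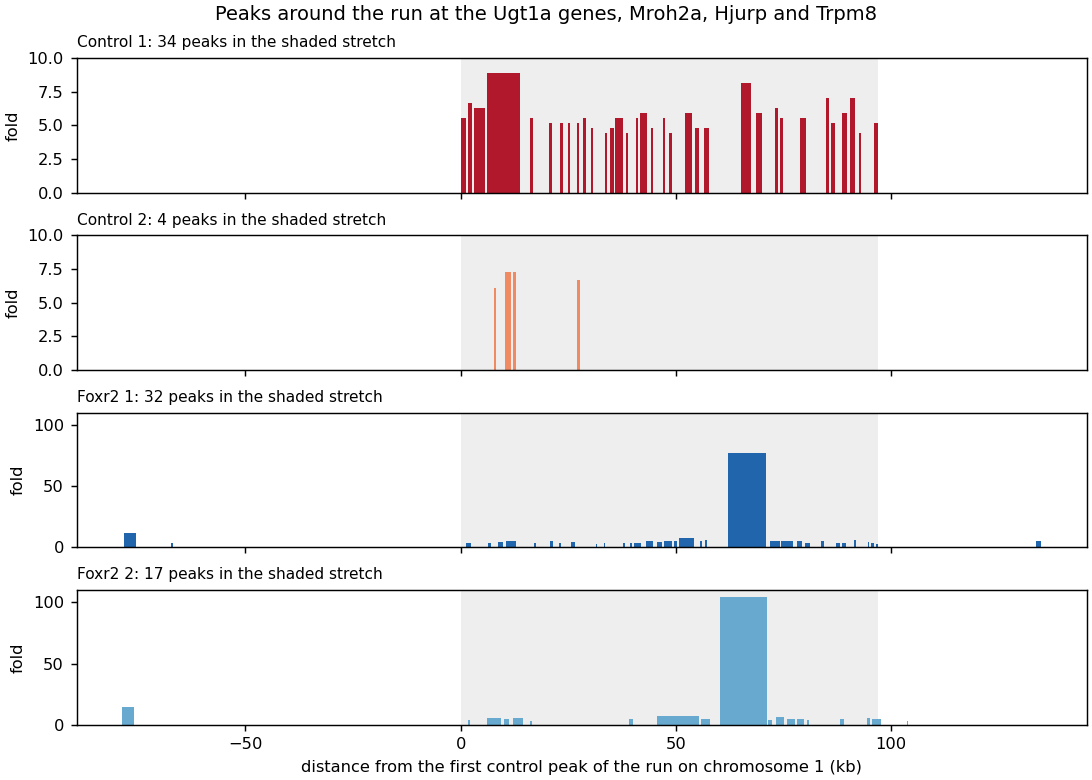
Fold of every peak (bar height, with width to scale) in the 4 lists against distance from the first control peak of the run on chromosome 1 (kb), with the run shaded. The control axes end at 10 and the Foxr2 p53LOF axes at 110. Control replicate 1 fills the shaded stretch with 34 low peaks and has none outside it, and the Foxr2 p53LOF lists add a peak of 76.9 and 104.1 at Hjurp.

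Outside the shared regions, replicate 1 peaks clear of the lowest folds went both ways. At chr2:3050021-3050480 the fold was 23.4 against 7.95 and 8.87 in the Foxr2 p53LOF lists. At chr17:3029748-3030821 it was 17.4, with no overlapping Foxr2 p53LOF peak. These examples were also picked after their values were seen. Other such peaks coincided with higher Foxr2 p53LOF peaks. In an intron of Zc3h7a (chr16:11143906-11144303), which also holds the miRNA gene Gm23935, the fold was 20.4 in replicate 1 and 45.5 and 42.7 in the Foxr2 p53LOF lists. In an intron of Jarid2, a gene for a partner of Polycomb repressive complex 2 (chr13:44869572-44869960), it was 15.2 against 17.7 and 27.9. Neither site had a peak in control replicate 2. Both sites were singled out after their values were seen, as were the peaks in Mdga2, Myo3a and Cldn34d, near Ly6c2 and in the runs. So were the intron shared by Cmss1 and Filip1l (chr16:57391166-57391676), at 37.5 and 25.6 in the controls and 50.4 and 54.9 in the Foxr2 p53LOF lists, and the intergenic site chr3:5860339-5860826, at 30.1 and 16.4 against 72.0 and 58.8. At the last 2, both Foxr2 p53LOF folds exceeded both control folds.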

How the data were processed

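CUT&RUN peaks were taken from 2 V5 control and 2 Foxr2 p53LOF libraries as deposited, 1 list per library. Per the submitters' processing notes and the methods, the authors used Trimmomatic 0.39, BWA 0.7.17 against mm10, Picard 2.26.6 to remove duplicates, HOMER 4.11 for tracks and MACS2 2.2.7.1. No control library for peak calling and no treatment of reads with several matches is given in the sources used here. The deposited fold is a ratio the authors made with MACS2. For a control peak, the fold given for another list is the highest among the peaks of that list overlapping it. Of the other deposited columns, the −log10 p checked the background, the −log10 q served in an alternative filter and the score, made from q, was not used.

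The background of each library was recovered as the value at which 100% of folds up to 30 give whole fragment numbers (within 0.02). Positions are 1-based in GRCm38 (patch p6), with genes from GENCODE M21. Scaffold names were matched to the reference by length (34 matched). Copy number is the median over 31-mers in the 200 bp at the summit. Windows of 400 bp were aligned with blastn 2.17.0 (E-value up to 1e-05, 200 bases or more) to the mitochondrial genome, the 18S locus and the chromosome 9 array (chr9:3000003-3038297). Steps were tested on simulated data. The 4 means per library were compared by exact permutation over libraries, called at p under 0.05, which 2 against 2 cannot reach (Benjamini-Hochberg adjusted p = 0.33 for all 4 by exact permutation). Alternatives covered the overlap, the minimum q and fold, the chromosomes, the unit, copy number, promoter window and each library left out. Genes named are those holding, or nearest to, the 10 highest peaks of each control list and the 15 shared single-copy regions of highest lower fold, and listed genes with a control peak within 10 kb. Other genes named, and the splits of classes by array, masking and tandem repeat, were picked after values were seen. Members and lists were chosen with earlier results of these data known. Python 3.11.15, numpy 2.4.6, pandas 2.3.3, pysam 0.24.0 and samtools 1.23.1 were used.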

Additional observations from a re-analysis of the deposited data

How the results depend on the processing

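All alternatives to the number of peaks (7), covered length (7), share of summits at 10 copies or more (11) and share within 1 kb of a protein-coding start (9) kept the direction of the difference. Their differences ran from -38364 to -14160 peaks, -52.5 to -31.6 Mb, 1.78 to 43.6 percentage points and -45.0 to -16.9 percentage points. The repeat difference is 1.78 at 100 copies, where 2.6% and 1.61% of control summits lie under the 7.9% of windows, and 43.6 at 2 copies. With −log10 q above 6 and fold above 6 the lists held 171 and 104 control and 13555 and 15040 Foxr2 p53LOF peaks, against 308, 124, 31909 and 38580. Pairing libraries by replicate number (replicate block, exact sign-flip test over 2 pairs, p = 0.5, the smallest possible) left the differences at -35028 peaks, -46.45 Mb, 14.16 and -20.55 points, and the number alone pairs them.

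Over both control lists 47.2% of peaks were shared, 35.3% to 66.5% under 5 alternatives, the lowest for merged loci and the highest for the q and fold filter. The share in a Foxr2 p53LOF peak was 67.8% in all and from 59.7% to 87.9% when each library was left out in turn, the highest without control replicate 1. A difference between libraries cannot pass p under 0.05 in this design, and no read totals bound the weak peaks.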
